A study of Mus musculus with 3 samples.

Results

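The interleukin 1 family is a group of cytokines, their receptors and their natural inhibitors. The 10 genes described here were chosen by symbol: the ligand genes Il1a, Il1b, Il18 and Il33, the inhibitor genes Il1rn and Il18bp, and the receptor genes Il1r1, Il1r2, Il1rap and Il1rl1. All 10 were found among the 55536 mouse genes of the deposited gene quantification, each under a single identifier. They were measured by sequencing polyadenylated RNA of bone-marrow-derived macrophages, phagocytes grown from the marrow of C57BL/6J mice, an inbred strain. A single group was analysed: 3 libraries, labelled biological replicates 1, 2 and 3, each from 1 µg of RNA of cells exposed for 180 min to 100 ng/mL of a stimulus. The stimulus is named lipid A, the membrane anchor of bacterial lipopolysaccharide, in the description, and lipoprotein A in the source name and treatment field. Sex and age were not collected per the labels, and 1 donor identifier is shared by every library, so p-values measure only the spread between these samples, which may be technical. No unstimulated group was analysed here, so no value below is a response to the stimulus.

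IL-1α and IL-1β, the products of Il1a and Il1b, bind the receptor encoded by Il1r1, which then recruits the accessory chain encoded by Il1rap and signals through MyD88 and IRAK kinases to NF-κB. Il1rn encodes the receptor antagonist, which occupies the same receptor without recruiting the accessory chain, and Il1r2 encodes a decoy receptor that binds ligand but does not signal. IL-18 signals through its own receptor pair and is neutralised by the binding protein from Il18bp, while IL-33 signals through ST2, the product of Il1rl1, paired with the same accessory chain. In macrophages exposed to microbial products, Il1b and Il1a are known as rapidly transcribed genes whose protein output also depends on proteolysis and membrane rupture, while IL-18 precursor is known to be present before stimulation.

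The libraries held 24450338, 34641026 and 60595742 expected counts (estimated fragments per gene, which need not be whole) of mouse genes in replicates 1, 2 and 3. All 10 macrophage markers examined, among them Adgre1, Csf1r and Cd68, reached 1 TPM in every library. The unit TPM gives each gene's share of all transcripts, scaled for length. Replicate 2 stood apart in genes of other cell types. The summed level of 14 neutrophil genes was 195, 826 and 119 TPM in replicates 1, 2 and 3, with 7 of 14 at 1 TPM in every library and the defining gene Ly6g at 0 in all of them. In replicate 2 most of this sum came from S100a9 (432 TPM), S100a8 (196 TPM) and Ngp (60.6 TPM), and 11 of the 14 were highest there. Csf3r (67.8, 48.7 and 46.6 TPM) and Padi4 (3.51, 1.88 and 3.78 TPM) were not. By TPM, replicate 2 was also highest in 7 of 8 dendritic cell, 7 of 8 stromal and 5 of 7 monocyte genes. It was so in 7 of 9 T and innate lymphoid, 3 of 5 B cell and 4 of 9 mast cell and basophil genes. The counts were 3 of 10 macrophage, 3 of 7 erythroid and megakaryocyte, 1 of 6 endothelial and 1 of 5 epithelial genes. On library-scaled counts rather than TPM, 29.7% of all tested genes differed between libraries and were highest there. The summed macrophage markers were lowest in the same library, at 29700, 19675 and 24136 TPM. In bulk RNA, a change in the number of cells of a type and a change in RNA per cell cannot be told apart. Mean levels and ratios that rest on replicate 2 are given with and without it, while the comparison of patterns over the 3 libraries is given only with it.

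The family was expressed at 3 widely separated levels. Detection was set at 1 TPM in each of the 3 libraries, which 8 of the 10 genes reached, against 18.1% of all genes. Il1b, Il1a and Il1rn had means near or above 1000 TPM, Il18bp and Il18 means near 88 TPM, and the receptor genes and Il33 means under 6 TPM. Il1r1 and Il1rl1 were not called detected. The 3 genes of the top level carried most of the family's transcripts, and the 10 genes summed to 2169, 6067 and 2063 TPM in replicates 1, 2 and 3. In the order of means, neighbouring genes did not overlap in their library values between Il1rn and Il18bp, between Il18 and Il1rap, between Il1rap and Il33, and between Il1r2 and Il1r1. The remaining neighbours overlapped.

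**Figure D1:**
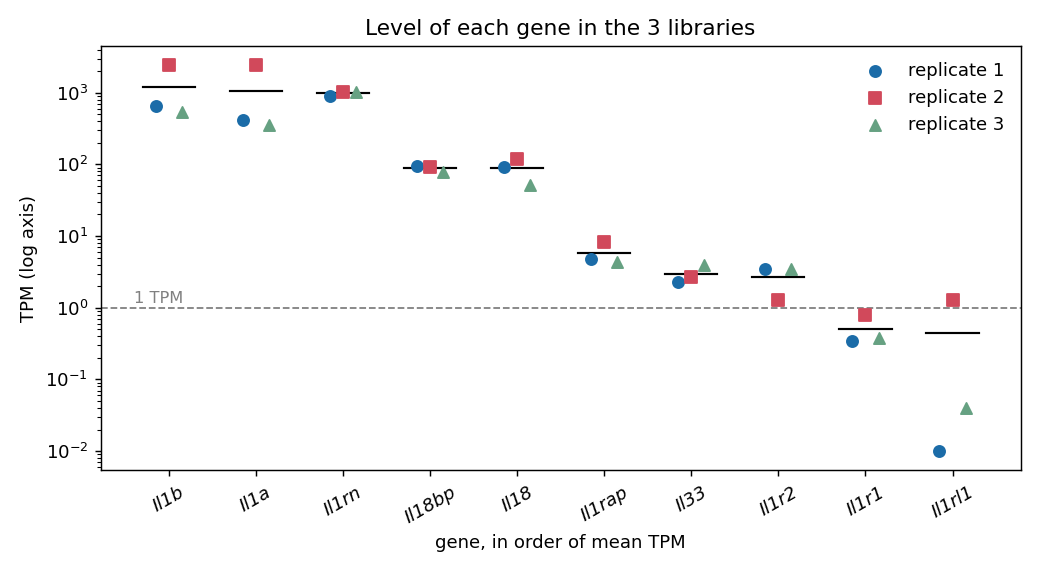
TPM of each of the 10 genes in the 3 libraries, on a log axis, with genes in order of their mean; points are libraries, the bar is the mean and the dashed line marks 1 TPM. The means of Il1b, Il1a and Il1rn lie near or above 1000 TPM, and those of Il18bp and Il18 near 88 TPM. Replicate 2 lies well above the other libraries for Il1b, Il1a and Il1rl1 but below them for Il1r2.

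Il1b (ENSMUSG00000027398.13, chr2:129364570-129371139, minus strand, mm10), which encodes the precursor of IL-1β, had 661, 2399 and 544 TPM in replicates 1, 2 and 3. Il1a (ENSMUSG00000027399.1, chr2:129299610-129309972, minus strand), the gene of IL-1α, had 415, 2418 and 357 TPM. In both genes replicates 1 and 3 lay close together and replicate 2 was several times higher. The means were 1202 ± 1039 TPM for Il1b and 1063 ± 1173 TPM for Il1a (SD, n = 3), and without replicate 2 they were 602.8 and 386 TPM. Replicate 2 exceeded the higher of the other libraries 3.63-fold in Il1b and 5.82-fold in Il1a.

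These agonist genes are neighbours, separated by 54.6 kb, and each starts at a single place for nearly all of its RNA. Il1a has 1 annotated transcript, of 7 exons and 270 codons. Il1b-201, the 7-exon transcript with 269 codons, held 99.0 ± 0.347% of the Il1b TPM, and the remainder fell on a processed transcript and a retained intron. The 250 bases before each start are shown as a description (RefSeq, GRCm38.p6, gene strand, 5′ to 3′). Both genes were highest in replicate 2, and a part of these bases in that was not tested. Capitals mark matches to 6 short motifs searched on both strands. The TATA box was searched as TATAAA and the AP-1 site as TGANTCA. The NF-κB pattern was GGGNNNNNCC and the C/EBP pattern TTNNGNAA. GAGGAA stood for the core that PU.1 binds, and the core that GATA factors bind was written AGATAA.
Il1a, chr2:129309973-129310222: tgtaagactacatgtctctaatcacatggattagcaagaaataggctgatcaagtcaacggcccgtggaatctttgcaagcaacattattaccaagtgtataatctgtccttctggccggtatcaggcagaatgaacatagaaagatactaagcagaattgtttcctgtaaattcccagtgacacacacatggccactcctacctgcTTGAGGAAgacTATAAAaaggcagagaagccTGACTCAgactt
Il1b, chr2:129371140-129371389: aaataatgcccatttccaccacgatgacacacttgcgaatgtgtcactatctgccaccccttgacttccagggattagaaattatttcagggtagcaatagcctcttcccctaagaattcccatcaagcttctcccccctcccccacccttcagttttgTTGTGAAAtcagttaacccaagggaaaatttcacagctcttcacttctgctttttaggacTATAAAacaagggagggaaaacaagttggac

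Both windows held the TATA box letters at about the same distance, from 32 to 27 bases before the Il1a start and from 31 to 26 bases before the Il1b start. Of 32851 promoter windows of this length, 12.4% held TATAAA on either strand. The Il1a window also held TGACTCA, 12 to 6 bases before its start, a pattern found in 6.75% of windows. It further held TTGAGGAA, a C/EBP match (36.8% of windows) that overlaps the PU.1 match GAGGAA (23.3% of windows). In Il1b the other match was TTGTGAAA, of the C/EBP pattern. The NF-κB pattern, found in 45.8% of windows, did not occur in either. A match is a description of letters, not evidence of a bound site, and only this window was searched.

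Relative to each other, Il1b and Il1a did not keep 1 ratio. TPM of Il1b was 1.59, 0.992 and 1.52 times that of Il1a in replicates 1, 2 and 3. On the scale log2((TPM + 0.1)/(TPM + 0.1)), which understates ratios of low genes, the mean was 0.42 ± 0.38 (SD, n = 3), above 0 in 2 of 3 libraries. It was 0.64 without replicate 2 and 0.30 without replicate 1. A two-sided exact permutation test that flips the sign of each library's value, adjusted over 8 pairs with the Benjamini-Hochberg method, gave p = 0.80. Since 3 libraries cannot give an unadjusted p below 0.25, no pair could pass a threshold of 0.05. On library-scaled counts, which are not divided by transcript length, the sign turned, to -0.24. The Il1a transcript is the longer one, at 1974 against 1356 bases.

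Genes whose pattern over the 3 libraries was most like these were sought among 5772 other protein-coding genes with a mean of 10 TPM or more. The measure was the Euclidean distance between log2(TPM + 0.1) values centred on each gene's mean, over 3 libraries. For Il1b the nearest were Ccl2 (distance 0.129), Plau (0.134), Ccl7 (0.18), Pf4 (0.186) and Fabp4 (0.241). Ccl2 and Ccl7 encode chemokines that attract monocytes, Plau a urokinase plasminogen activator, Pf4 a platelet chemokine and Fabp4 a fatty acid binding protein. Ccl2 had 764, 2817 and 707 TPM in replicates 1, 2 and 3. For Il1a the nearest were Fabp4 (0.397), Plau (0.409), the neutrophil marker S100a8 (0.47), Il1b itself (0.533) and Ccl2 (0.586). S100a8 had 31.0, 196 and 18.7 TPM, also highest in replicate 2.

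Il1rn (ENSMUSG00000026981.15, chr2:24336853-24351494, plus strand), the receptor antagonist gene, had 895, 1025 and 1019 TPM in replicates 1, 2 and 3. All libraries lay within a narrow range, and the mean was 980 ± 73.5 TPM (SD, n = 3). The antagonist gene therefore stood above both agonist genes in replicates 1 and 3 and below both in replicate 2. TPM of Il1rn was 1.35, 0.427 and 1.87 times that of Il1b, and 2.15, 0.424 and 2.85 times that of Il1a, in replicates 1, 2 and 3. The mean log2 ratios, 0.04 ± 1.12 to Il1b and 0.46 ± 1.48 to Il1a (SD, n = 3), were smaller than their spread, with adjusted p = 1.0 and 0.857 by the exact sign-flip permutation test. Without replicate 2 they were 0.67 and 1.31, and without replicate 3 they were -0.40 and -0.07, so the sign of the mean depended on which library was left out.

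**Figure D2:**
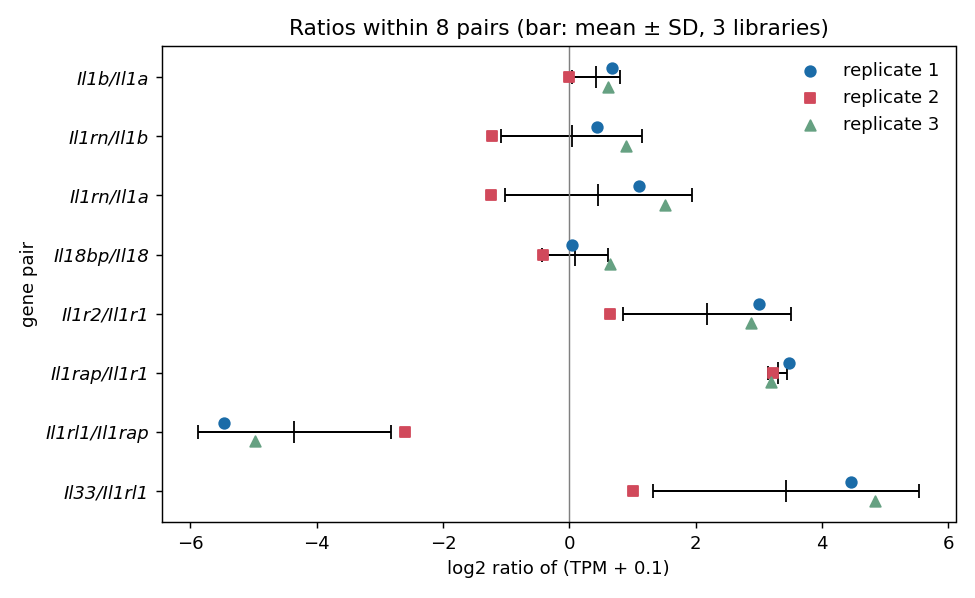
Log2 ratio of (TPM + 0.1) within 8 gene pairs; points are the 3 libraries and the bar is the mean ± SD. The antagonist-to-agonist pairs Il1rn/Il1b and Il1rn/Il1a lie above 0 in replicates 1 and 3 and below 0 in replicate 2, whereas Il1rap/Il1r1 stays between 3.20 and 3.47 in every library.

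Transcripts of Il1rn fell on 2 groups of starts, 8435 bases apart. The downstream group held 90.3 ± 0.936% of the gene's TPM and the upstream group 9.69 ± 0.936% (SD, n = 3). Il1rn-201, the transcript with 178 codons that encodes the secreted antagonist, took 78.5%, 85.3% and 81.0% in replicates 1, 2 and 3. Il1rn-204, with 159 codons from the upstream start and known as an intracellular form, took 10.3%, 8.86% and 8.86%. Il1rn-202, with 162 codons, took 5.29%, 3.46% and 6.49%, and the non-coding Il1rn-206 took 5.49%, 2.25% and 3.21%. In absolute terms these TPM put the upstream group level across libraries, at 96.3, 92.4 and 94.7 TPM. The second deposited quantification did not. There Il1rn-204 had 50.5, 67.3 and 54.0 TPM in replicates 1, 2 and 3, and Il1rn-205, also of the upstream group, 7.91, 18.7 and 4.56 TPM.

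The bases before both starts are shown because they carry so unequal a share of the RNA (same build, direction and motifs; bases inside an annotated transcript that starts in the window are left off the end).
Il1rn upstream start, chr2:24336610-24336852: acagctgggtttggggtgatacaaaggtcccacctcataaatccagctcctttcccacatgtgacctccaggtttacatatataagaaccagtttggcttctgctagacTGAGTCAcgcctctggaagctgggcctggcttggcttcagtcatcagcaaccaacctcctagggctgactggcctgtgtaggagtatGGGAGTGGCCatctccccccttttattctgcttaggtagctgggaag
Il1rn downstream start, chr2:24345041-24345287: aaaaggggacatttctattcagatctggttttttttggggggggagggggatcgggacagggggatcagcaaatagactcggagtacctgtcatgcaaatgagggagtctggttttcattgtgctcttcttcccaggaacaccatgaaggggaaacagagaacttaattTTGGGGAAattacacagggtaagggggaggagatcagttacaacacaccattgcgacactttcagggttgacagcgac

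The upstream window held TGAGTCA, of the AP-1 pattern, 141 to 135 bases before the start and GGGAGTGGCC, of the NF-κB pattern, 54 to 45 bases before it. The printed downstream window, which ends at the start of Il1rn-202, 22 bases before that of Il1rn-201, held TTGGGGAA, of the C/EBP pattern, 81 to 74 bases before the RefSeq start. RefSeq has a further downstream start 80 bases on, whose window, not printed, held GGGTTTTTCC, of the NF-κB pattern, 51 to 42 bases before it, and 3 matches of the C/EBP pattern. The NF-κB pattern was thus matched near both groups of starts. TATAAA occurred in none of the 3 windows, in contrast to the windows of Il1a and Il1b printed above.

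Il18 (ENSMUSG00000039217.13, chr9:50554827-50581840, plus strand) had 91.8, 121 and 51.1 TPM in replicates 1, 2 and 3, with a mean of 87.9 ± 35.0 TPM (SD, n = 3). Il18bp (ENSMUSG00000070427.4, chr7:102014885-102018690, minus strand), the gene of its soluble inhibitor, had 94.9, 90.7 and 79.6 TPM, with a mean of 88.4 ± 7.90 TPM. The ligand and its inhibitor thus had almost equal means over the 3 libraries, and the ligand varied more. Without replicate 2 the means were 71.4 TPM for Il18 and 87.2 TPM for Il18bp. TPM of Il18bp was 1.03, 0.750 and 1.56 times that of Il18, and the mean log2 ratio of 0.09 ± 0.53 was smaller than its spread (adjusted p = 0.857, exact sign-flip permutation test). It was 0.34 without replicate 2, -0.18 without replicate 3 and -0.12 in the second quantification.

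Il18 RNA was divided among transcripts from 3 starts within 20446 bases. Il18-204 and Il18-202, both with 192 codons, took 42.2 ± 2.95% and 41.0 ± 4.48% of the gene's TPM, and Il18-203, with 78 codons, 16.8 ± 2.47% (SD, n = 3). Il18-201 has the same start and length as Il18-202 and differs from it in 7 of 702 bases. The first transcript quantification gave it 0, while the second quantification gave it 4.59 ± 1.91%, with 17.9 ± 12.3% for Il18-202 and 54.5 ± 12.3% for Il18-204. The division of Il18 among transcripts is uncertain to that extent. Of Il18bp, the 193-codon transcripts Il18bp-201 and Il18bp-203 took 63.6 ± 1.87% and 32.8 ± 1.32%. Il18bp overlaps Numa1, on the opposite strand, which had 23.6, 18.0 and 20.7 TPM. Strand handling is not stated in the sources read, and the stretch these genes share is uncertain.

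Il33 (ENSMUSG00000024810.16, chr19:29925114-29960718, plus strand), whose product is a nuclear alarmin, had 2.32, 2.65 and 3.89 TPM in replicates 1, 2 and 3, from 85, 139 and 348 expected counts. It was detected at a low level in every library and highest in replicate 3. Its transcripts Il33-201 and Il33-202 carry the same 266 codons but start 20676 bases apart. Il33-201, from the downstream start, took 69.4%, 100% and 92.5% of the gene's TPM, and Il33-202 took 30.6%, 0% and 7.46%.

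Among the receptor genes, the signalling receptor was the scarcer partner. Il1r1 (ENSMUSG00000026072.12, chr1:40225080-40317257, plus strand) had 0.34, 0.79 and 0.38 TPM in replicates 1, 2 and 3, from 28, 94 and 75 expected counts. Il1r2 (ENSMUSG00000026073.13, chr1:40074079-40125231, plus strand), the decoy receptor gene, had 3.43, 1.29 and 3.43 TPM, from 64, 34 and 154 counts. Il1rap (ENSMUSG00000022514.14, chr16:26581704-26730117, plus strand), the accessory chain gene, had 4.79, 8.24 and 4.31 TPM. In TPM, Il1r2 and Il1rap exceeded Il1r1 in every library.

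The ratio of the accessory chain to Il1r1 varied less across libraries than that of the decoy to Il1r1. The log2 Il1rap/Il1r1 ratio was 3.47, 3.23 and 3.20 in replicates 1, 2 and 3. Its mean was 3.30 ± 0.15 (SD, n = 3), a 9.85-fold excess of Il1rap with 0.1 TPM added to both genes. Without that addition, TPM of Il1rap was 14.1, 10.4 and 11.3 times that of Il1r1, and TPM of Il1r2 10.1, 1.63 and 9.03 times. The log2 Il1r2/Il1r1 ratio was 3.00, 0.64 and 2.88, with a mean of 2.18 ± 1.33, a 4.52-fold excess of Il1r2, and 2.94 without replicate 2. On library-scaled counts, not divided by transcript length, it was 0.24, and replicate 2 held fewer counts of Il1r2 than of Il1r1 (34 against 94). In replicate 2 the decoy was at its lowest and Il1r1 at its highest. Both pairs stood on 1 side of 0 in 3 of 3 libraries and beyond their SD, with adjusted p = 0.5 by the exact sign-flip permutation test, which here is the value that the smallest unadjusted p gave.

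Transcripts also separate membrane from soluble forms of Il1rap. Il1rap-201, with 570 codons, encodes the full-length membrane chain and took 81.2%, 86.3% and 85.4% of the gene's TPM in replicates 1, 2 and 3. Il1rap-206, with 360 codons, is a shorter form of the kind known to be soluble and took 18.0%, 12.9% and 13.5%. Il1rap-202, with 685 codons and an alternative end, took 0.835%, 0.850% and 1.16%. Il1r2 RNA was assigned to 1 transcript, Il1r2-201. Il1r1 was divided between Il1r1-201 and Il1r1-202, whose starts lie 41506 bases apart, at 53.8 ± 5.71% and 46.2 ± 5.71%, but the second quantification gave 21.2 ± 8.83% and 73.4 ± 17.3%, so the leading start of this low gene is unsettled.

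Il1rl1 (ENSMUSG00000026069.15, chr1:40429570-40465415, plus strand), which encodes ST2, the receptor of IL-33, had 0.01, 1.27 and 0.04 TPM in replicates 1, 2 and 3, from 1, 83 and 7 expected counts. Nearly all of its counts came from replicate 2. Against the other libraries together, which held 8 counts, the rate per count of the library was 25.5 times higher in replicate 2 (95% Clopper-Pearson interval 12.3 to 60.9, counting error only). In that library 82.0% of the gene's TPM fell on Il1rl1-203, with 337 codons, the soluble ST2 form, and 18.0% on Il1rl1-201, with 567 codons, the membrane receptor. The few counts of replicates 1 and 3 were all assigned to Il1rl1-201. The second quantification gave Il1rl1-203 a like share in replicate 2, 81.3%, and put 18.2% on Il1rl1-202, which has the same 567 codons. Il1rl1 stood below Il1rap in every library (log2 ratio -4.35 ± 1.53, and -5.23 without replicate 2) and below its ligand gene Il33 in every library (log2 Il33/Il1rl1 3.43 ± 2.11, and 4.65 without replicate 2).

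**Figure D3:**
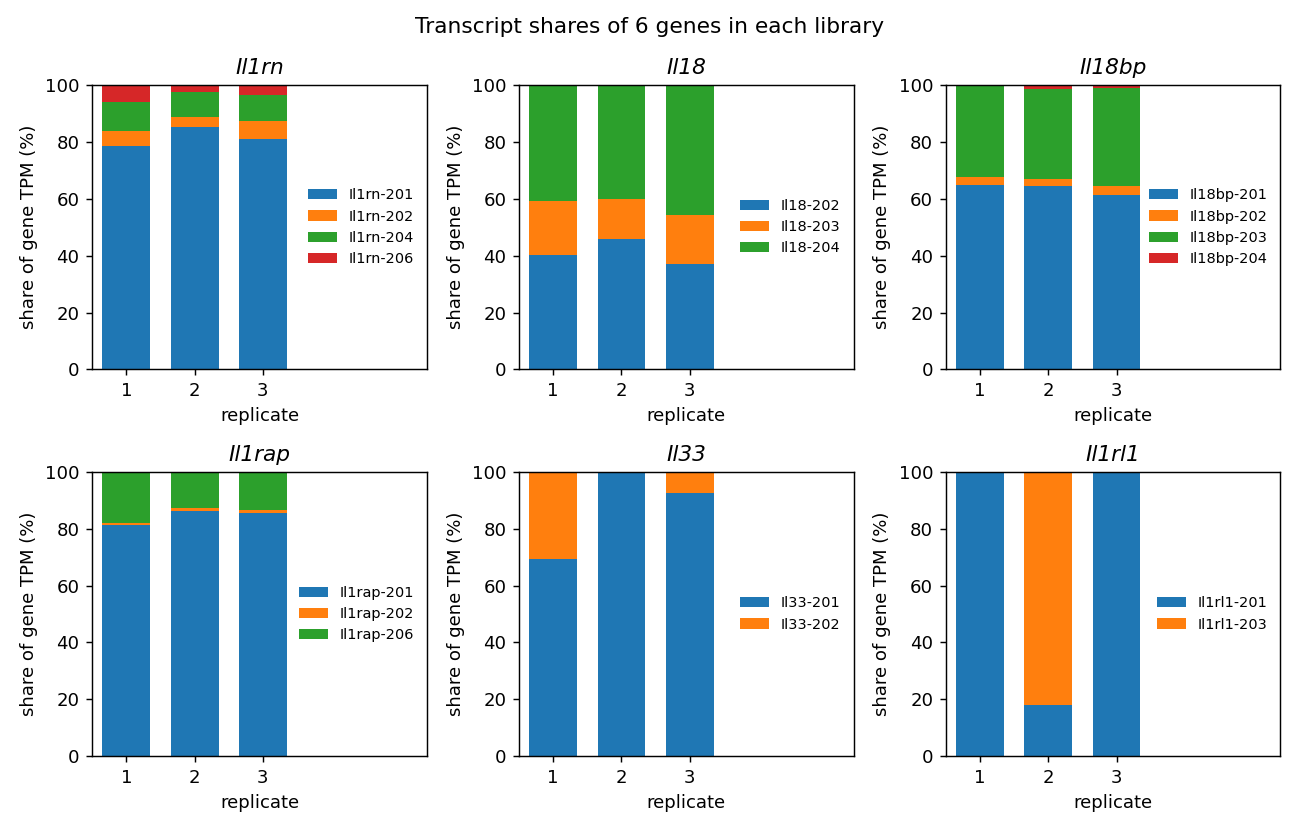
Share of each gene's TPM, in percent, taken by its annotated transcripts in replicates 1, 2 and 3, for 6 genes; transcripts that reach 0.5% in at least 1 library are drawn. Shares of Il1rn, Il18bp and Il1rap are alike across libraries, whereas Il1rl1 shifts from Il1rl1-201 in replicates 1 and 3 (1 and 7 counts) to 82.0% Il1rl1-203 in replicate 2 (83 counts).

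Il1rl1 is known for a distal and a proximal start, used in different cell types. The transcript from the distal start, Il1rl1-205, was listed at 0 in all 3 libraries, and the transcripts with counts start near the proximal one, which is shown for that reason (same build, direction and motifs).
Il1rl1 proximal start, chr1:40439379-40439626: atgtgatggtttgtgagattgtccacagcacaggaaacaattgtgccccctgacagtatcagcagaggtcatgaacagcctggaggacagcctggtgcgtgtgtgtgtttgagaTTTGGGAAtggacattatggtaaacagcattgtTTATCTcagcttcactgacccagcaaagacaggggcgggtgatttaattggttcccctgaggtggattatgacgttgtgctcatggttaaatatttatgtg

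That window held TTTGGGAA, of the C/EBP pattern, 136 to 129 bases before the start and TTATCT, the reverse complement of AGATAA, 103 to 98 bases before it. Both patterns also occurred before the distal start, whose window is not printed. They were TTGCATAA, of the C/EBP pattern, 34 to 27 bases before it, and AGATAA, 217 to 212 bases before it. The AGATAA letters occurred in 9.99% of all windows. Mast cells, basophils, innate lymphoid cells and stromal cells are known sources of ST2, and their markers were examined beside it. None of 9 mast cell and basophil genes reached 1 TPM in every library, and Fcer1a, Tpsb2, Cma1 and Mcpt4 were at 0, while their sum was 1.04, 2.88 and 1.73 TPM in replicates 1, 2 and 3. Of the 9, 4 were highest in replicate 2, among them Prss34, a basophil protease gene, at 0, 1.48 and 0.03 TPM, and Mcpt8 at 0, 0.30 and 0 TPM. Kit, the gene of the stem cell factor receptor and the largest part of the sum in replicates 1 and 3, was lowest in replicate 2, at 0.99, 0.42 and 1.63 TPM. None of 8 stromal genes was detected either, with sums of 0.59, 7.87 and 1.04 TPM, of which the matrix gene Dcn made up 0, 5.12 and 0.02. Of 9 T cell and innate lymphoid genes, 1 was detected, Il7r, and the sums were 22.1, 82.6 and 43.3 TPM. The markers of these cell types thus did not all follow Il1rl1, and their part in its value was not tested.

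Whether each gene differed between libraries by more than counting noise was tested on rounded expected counts, with a chi-square test of equal rates scaled by TMM library sizes and adjusted over 11611 genes. All 9 of the genes that passed the filter on low counts were called at an adjusted p under 0.05. This is read against the background, since 77.5% of all tested genes were called. Il1rl1 did not pass the filter, and with no filter it was called too, as were 49.6% of all genes. The test compares these libraries, not conditions, and more deeply sequenced genes are called at smaller differences. Without replicate 2, Il1r1, Il1r2 and Il1rap were no longer called (adjusted p = 0.720, 0.996 and 0.468), where 50.6% of all tested genes were. Without replicate 1 Il18bp was not called (adjusted p = 0.188), where 64.3% of genes were, and without replicate 3 Il33 was not (adjusted p = 0.647), where 58.8% were.

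In direction, 5 of the 9 genes were called and highest in replicate 2, namely Il1a, Il1b, Il18, Il1r1 and Il1rap, where 29.7% of tested genes were. Il1r2 was the 1 gene called and lowest in replicate 2 (29.4% of tested genes), and Il1rn and Il33 were called and highest in replicate 3 (23.5%). Over these 9 genes the log2 deviation of replicate 2 from the mean of the other libraries had a median of 0.59, against 0.00 over all tested genes. A 2-fold excess of replicate 2 over both other libraries was met by Il1a and Il1b and by 1.97% of tested genes, and a 2-fold deficit by Il1r2 and by 1.09% of tested genes. Il1r1 missed the rule on scaled counts but stood 2.08-fold above the higher of the other libraries in TPM.

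The biological coefficient of variation is the edgeR estimate of relative spread between libraries beyond counting noise. Over all 3 libraries it was 52.3% for Il1a, 41.1% for Il1b, 37.3% for Il1r2 and 34.7% for Il1r1, against a median of 21.3% over all tested genes. Larger values than that of Il1a were found in 0.327% of tested genes and larger than that of Il1b in 1.45%. Il33, Il18 and Il1rap had 27.1%, 25.1% and 24.3%, and the inhibitor genes Il1rn and Il18bp were the lowest of the 9, at 18.0% and 17.3%. These ranks rested on single libraries. Without replicate 2 the values were 16.1% for Il1a, 16.4% for Il1b and 22.7% for Il1r2, with a median of 17.6% over all genes and 16.1% for Il1rn. Without replicate 1 they were 20.4% for Il1a and 20.3% for Il1b (median 22.4%), although replicates 2 and 3 differed 6.77-fold and 4.41-fold in TPM, so an estimate from 2 libraries says little about a single gene. The summed neutrophil markers, though not Csf3r and Padi4, were highest in the library where Il1a and Il1b were highest. Most dendritic cell, stromal, monocyte and T and innate lymphoid genes examined were also highest there. The part of other cell types in these values was not tested.

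**Figure D4:**
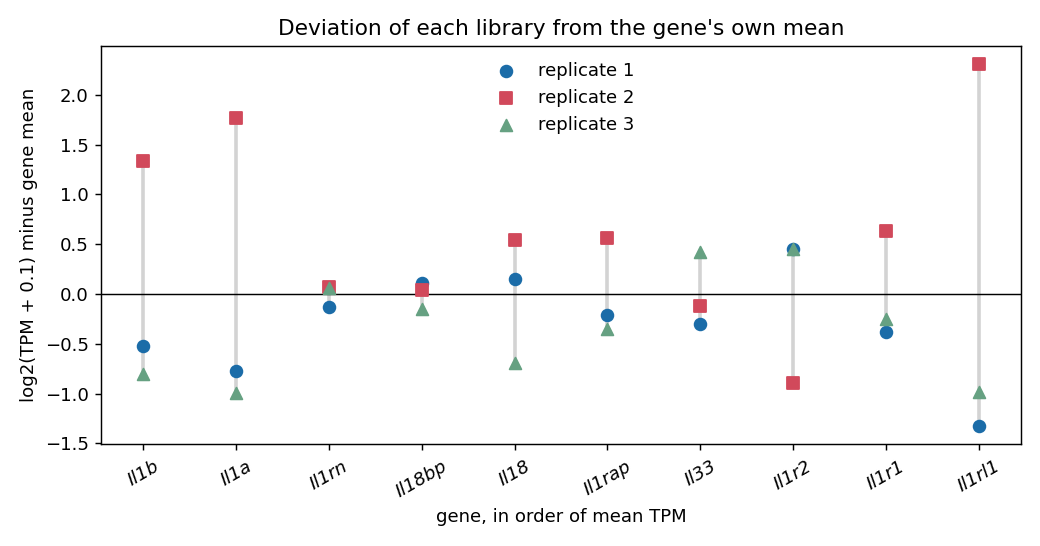
Deviation of log2(TPM + 0.1) in each library from the gene's mean over the 3 libraries, for the 10 genes in order of mean TPM. Replicate 2 is far above the other libraries for Il1b, Il1a and Il1rl1 and below them for Il1r2, while the inhibitor genes Il1rn and Il18bp span a narrow range.

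Of 11 further ligand and receptor genes of the family, 2 were detected, a share like the 18.1% over all genes. These were Il18rap, the accessory chain of the IL-18 receptor, at 4.75, 3.79 and 2.97 TPM in replicates 1, 2 and 3, and Il1rl2, the receptor of IL-36 cytokines, at 1.86, 1.98 and 1.62 TPM. The ligand-binding chain of the IL-18 receptor, Il18r1, had 0.04, 0.06 and 0.01 TPM, far below its partner. Of the IL-36 genes, which the annotation lists under older Il1f symbols, Il36g had 1.03, 1.74 and 0.20 TPM, Il36a 0, 0 and 0.04 TPM, and Il36b and the antagonist gene Il36rn were at 0, as were Il1f10, Il1rapl1 and Il1rapl2. Sigirr, an inhibitory receptor gene, had 0.71, 0.30 and 0.49 TPM. Along chromosome 1, 6 receptor genes lie within 478 kb in the order Il1r2, Il1r1, Il1rl2, Il1rl1, Il18r1 and Il18rap, of which Il1r2, Il1rl2 and Il18rap were detected.

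Genes that mature and release these cytokines were mostly present. Of 21, 18 were detected, led by Ninj1, which ruptures the plasma membrane, at 352 ± 60.6 TPM, Casp4, the sensor of cytosolic lipopolysaccharide, at 262 ± 84.4 TPM, and Casp1, which cleaves the IL-1β and IL-18 precursors, at 238 ± 73.4 TPM (SD, n = 3). The neutrophil protease genes Elane, Prtn3 and Ctsg were not detected, and Ctsg was lowest at 0.08, 0.48 and 0 TPM. Of 18 tested, 16 were called, 6 of them lowest and 5 highest in replicate 2, close to the shares over all tested genes (77.5%, 29.4% and 29.7%). The latter 5 were Capn2, Nlrp3, Nek7, Mefv and Nlrc4, which were picked for this. Nlrp3, the inflammasome sensor gene, had 85.5, 117 and 61.9 TPM in replicates 1, 2 and 3, and no gene of the list showed a 2-fold excess or deficit there.

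Downstream of the receptors, 23 of 24 signalling genes were detected. Mapkapk2, a kinase gene of the p38 branch, had 571 ± 135 TPM, Tnip1, an inhibitor of NF-κB signalling, 237 ± 19.5 TPM, and Peli1, a ubiquitin ligase gene, 198 ± 18.1 TPM (SD, n = 3). Peli3 was lowest, at 0.66, 0.51 and 0.38 TPM. Of 24 tested, 23 were called, 12 highest and 9 lowest in replicate 2, against 77.5%, 29.7% and 29.4% over all tested genes, and the ubiquitin ligase gene Peli2, named for this, was in 2-fold deficit there with 4.81, 2.14 and 5.25 TPM in replicates 1, 2 and 3.

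Factors known to act on the RNA of Il1a and Il1b were examined from 2 further lists. All 8 mRNA decay and stability genes were detected, led by Zfp36, the gene of tristetraprolin, at 274 ± 41.7 TPM, Hnrnpd at 123 ± 19.7 TPM and Zc3h12a, an endonuclease gene, at 60.7 ± 8.61 TPM, with Zfp36l1 lowest at 4.26, 7.60 and 2.55 TPM. Of the 8, Hnrnpd, Elavl1, Rc3h1, Zfp36l2 and Zfp36l1 were called and highest in replicate 2, and Zc3h12a and Khsrp were called and lowest there, against 29.7% and 29.4% over all tested genes. Of 15 transcription factor genes, 13 were detected, led by Irf8 at 551 ± 63.8 TPM, Spi1, the gene of PU.1, at 371 ± 55.9 TPM and Atf3 at 324 ± 55.3 TPM, with Irf4 lowest at 0.21, 0.63 and 0.40 TPM. Of 15 tested, 14 were called, 8 of them lowest in replicate 2 and 4 highest, namely Atf3, Hif1a, Fos and Irf4. Over all tested genes the shares were 77.5%, 29.4% and 29.7%. No gene of these lists met the 2-fold rule in replicate 2 that Il1a and Il1b met.

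**Figure D5:**
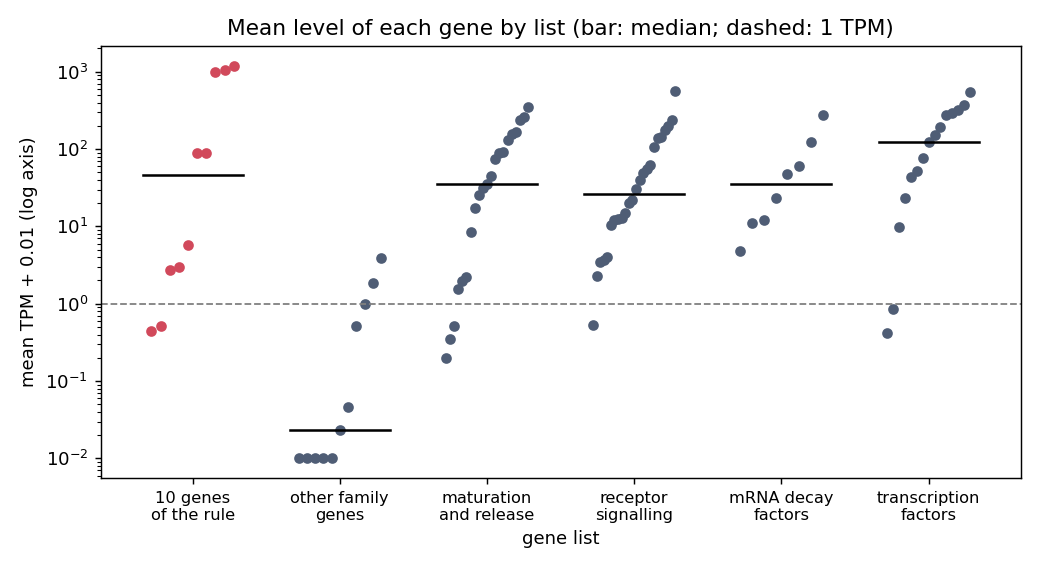
Mean TPM over the 3 libraries, with 0.01 added so that genes at 0 can be drawn on the log axis, for the 10 genes of the family described here and 5 lists of related genes; each point is a gene, the bar is the list's median and the dashed line marks 1 TPM. Most of the 11 other family genes lie below 1 TPM, while 23 of 24 receptor signalling genes and all 8 mRNA decay genes lie above it.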

How the data were processed

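Polyadenylated RNA of 3 macrophage libraries of a single group was analysed. The authors deposited a gene quantification with expected counts, TPM and FPKM per gene, a transcript quantification that adds the percent of a gene taken by each transcript, and a second transcript quantification, whose columns are estimated counts and TPM per transcript (per the file headers). The assembly mm10 and annotation GENCODE M21 are named in text files deposited beside them. The aligner, the quantifiers and strand handling are not stated in the sources read, and replicates were not pooled by the authors.

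Genes were matched by identifier. Deposited TPM gave levels and FPKM an alternative count of detected genes. Transcript shares were recomputed from deposited TPM, in percent of the gene's sum. Spread used rounded expected counts with edgeR 4.0.16 in R 4.3.3 (default filter on low counts, TMM), after leaving out entries that are no mouse gene, which held 0.117%, 0.0993% and 0.0820% of counts. DESeq2 1.42.0 gave alternative size factors. A chi-square test of equal rates with Benjamini-Hochberg adjustment was tested on simulated data. Those data held counting noise and set differences in replicate 2 but no further spread between libraries, so they say nothing about the test under such spread. The limit that a count of 0 allows, 3 counts per library, is 1.23e-05%, 8.66e-06% and 4.95e-06% in replicates 1, 2 and 3, for counting error only, as fragments carry no molecular identifiers.

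The members, lists and pairs were chosen with earlier results of these data known. All 10 members are named; of each list, the 3 highest and the lowest by mean TPM are, and all of the further family genes. For patterns, the 5 nearest genes to Il1a and to Il1b are named. RefSeq promoter windows were found for all 10 members (15 windows, of which 5 are printed). Alternatives were other thresholds and pseudocounts, the second quantification, unscaled counts, DESeq2 scaling, no filter and leaving out each library. Recomputing mean levels and coefficients of variation this way was added after the data were seen.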

Additional observations from a re-analysis of the deposited data

How the results depend on the processing

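The 8 detected genes became 5 at 5 TPM, and 9 at 0.1 TPM, 7 by FPKM and 8 in the second quantification or with any 1 library left out. Of 24 recomputed pair means outside library omission, 2 turned sign: Il1b/Il1a to -0.24 without length scaling and Il18bp/Il18 to -0.12 in the second quantification. With 1 library left out, the mean log2 ratio ranged from -0.40 to 0.67 for Il1rn/Il1b (negative without replicate 1, at -0.16, or replicate 3), from -0.066 to 1.31 for Il1rn/Il1a and from -0.18 to 0.34 for Il18bp/Il18 (both negative without replicate 3). The other pairs kept their sign under every alternative run. A pseudocount of 1 TPM lowered Il1r2/Il1r1 to 1.254, Il1rap/Il1r1 to 2.14 and Il33/Il1rl1 to 1.55, and moved Il1rl1/Il1rap to -2.30. Counts not scaled for length moved Il1r2/Il1r1 to 0.24, Il1rn/Il1b to 0.65 and Il18bp/Il18 to 1.23.

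Leading shares moved by more than their SD in the second quantification for Il1b-201 (97.9%), Il18bp-201 (73.6%), Il18-204 (54.5%) and Il1r2-201 (92.1%), and so did the mean levels of Il1rn (822 TPM) and Il18bp (72.8 TPM). The cause was not tested. Genes called as differing between libraries numbered 9 with DESeq2 scaling or the second quantification (77.6% and 77.7% of all genes called), 10 with no filter, where Il1rl1 was added (49.6%), and 8, 6 and 8 without replicates 1, 2 and 3 (64.3%, 50.6% and 58.8%). Of the 9 that passed the filter, 5 were highest in replicate 2 with DESeq2 scaling and in the second quantification, and 6 by deposited TPM, where Il1rn (1025 against 1019 TPM) was added; over all 10 members, deposited TPM gave 7, with Il1rl1. Counts of 1 to 94 limit Il1rl1 and Il1r1. No paired analysis was possible because there is a single group.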
